A study of Mus musculus with 2 samples.

Results

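The Cyp4a genes encode cytochromes P450 that hydroxylate fatty acids. Members were taken by gene symbol, and Cyp4a10, Cyp4a12a, Cyp4a12b, Cyp4a14, Cyp4a31 and Cyp4a32 made up 6 of the 24054 genes in the table of TPM, a transcript level scaled for transcript length and library total. All 6 also had an entry in the second table of 16318 genes, which holds the authors' mean for each library, and all 6 averaged at least 1 TPM over the 2 libraries. Of the 8 genes with a Cyp4a symbol, Cyp4a29 and Cyp4a30b were each listed at 0.05 TPM in the KO pool and 0.04 TPM in the WT pool, had no entry in the second table, and were not members.

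The study removed Pgrmc1, a heme-binding membrane protein that associates with cytochromes P450, and measured liver RNA without it. Both groups were C57BL/6 male mice of 8 to 12 weeks, namely Pgrmc1 KO (Pgrmc1 -/Y, the gene being X-linked) and WT. For each genotype, 2.5 μg of RNA from each of 5 mice was pooled into 1 library, so there were 2 libraries, no replicates and no measure of the spread between mice. The KO was constitutive and whole body rather than specific to the liver: exons 1 and 2 of a floxed Pgrmc1 allele were deleted with a Sox2-Cre transgene, which acts in the early embryo. By the study's methods the floxed allele was made in C57BL/6N and the Cre line was B6.Cg-Tg(Sox2-cre)1Amc/J, so the label C57BL/6 does not name a substrain. Whether the WT mice carried Cre or were littermates, and the hour at which livers were taken, was not given in the sources used here. Mice were fed ad libitum and no drug treatment was named for these samples.

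Cytochromes P450 of the Cyp4a subfamily sit in the endoplasmic reticulum and add a hydroxyl group to the terminal (omega) carbon of medium- and long-chain fatty acids, including arachidonic acid. Alcohol and aldehyde dehydrogenases then turn the product into a dicarboxylic acid, which peroxisomes shorten by beta oxidation. In mouse liver, Cyp4a10 and Cyp4a14 are classical targets of the nuclear receptor PPAR alpha, which fatty acids, fasting and fibrate drugs activate, whereas Cyp4a12a is the main male-biased, androgen-dependent form.

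The members lie together on chromosome 4 (GRCm38), over 322.557 kb. Cyp4a12a lies at chr4:115299046-115332815 and Cyp4a12b at chr4:115411624-115439034, both on the plus strand. Cyp4a14, the only member on the minus strand, lies at chr4:115486200-115496142, 47.165 kb beyond Cyp4a12b. It is followed by Cyp4a10 at chr4:115518264-115533649, Cyp4a31 at chr4:115563649-115579015 and Cyp4a32 at chr4:115600969-115621602, all on the plus strand. Cyp4a10 has 13 exons in its GENCODE M21 transcript and each other member has 12. Cyp4a29 lies ahead of Cyp4a12a and Cyp4a30b lies between Cyp4a12b and Cyp4a14, so the map of the cluster has 8 genes.

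**Figure D1:**
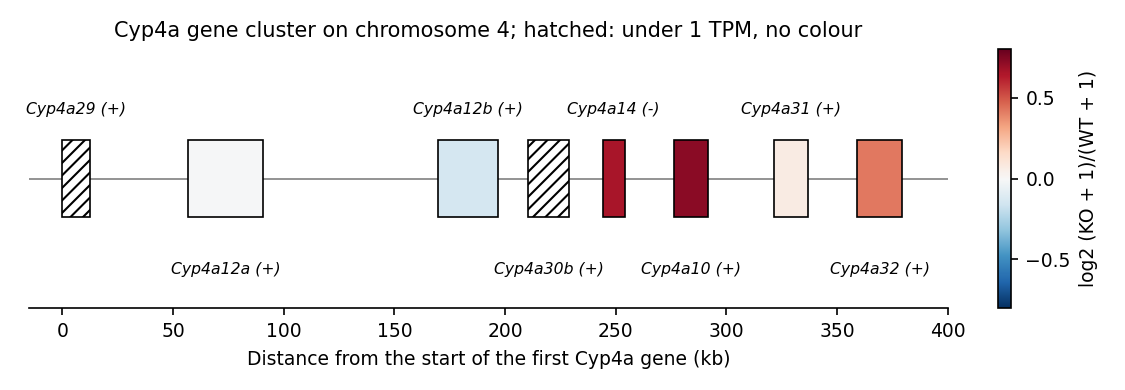
Map of the Cyp4a cluster on chromosome 4, drawn to scale as distance in kb from the start of Cyp4a29, with the strand of each gene in brackets and the colour giving log2((KO TPM + 1)/(WT TPM + 1)). The neighbours Cyp4a14 (0.66) and Cyp4a10 (0.72) have the deepest red, Cyp4a12a (-0.01) is almost white, and the hatched Cyp4a29 and Cyp4a30b were under 1 TPM.

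In their coding sequences the members fell into 3 groups. Cyp4a12a and Cyp4a12b were identical at 98.5% of aligned coding bases, and Cyp4a10, Cyp4a31 and Cyp4a32 at 96.0% to 97.2%. Cyp4a14 stood alone, at 75.1% to 76.0% identity to every other member. The stretch that codes for the P450 signature around the heme-binding cysteine shows the same grouping, and is given for this reason (GENCODE M21 transcripts, GRCm38, 78 coding bases, 5′ to 3′ on the coding strand, with the 30 signature bases in capitals). In each gene the stretch lies across the intron between exons 11 and 12, and spans chr4:115529478-115532567 in Cyp4a10, chr4:115574926-115577972 in Cyp4a31, chr4:115614856-115621470 in Cyp4a32, chr4:115328962-115331870 in Cyp4a12a and chr4:115435216-115438093 in Cyp4a12b, all on the plus strand, and chr4:115487275-115489829 on the minus strand in Cyp4a14.
Cyp4a10, Cyp4a31 and Cyp4a32: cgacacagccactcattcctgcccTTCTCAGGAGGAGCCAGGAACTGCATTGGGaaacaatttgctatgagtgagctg
Cyp4a12a and Cyp4a12b: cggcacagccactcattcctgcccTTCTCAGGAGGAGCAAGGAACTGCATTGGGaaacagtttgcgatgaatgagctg
Cyp4a14: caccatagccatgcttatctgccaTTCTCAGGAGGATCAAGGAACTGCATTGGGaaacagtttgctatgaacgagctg
The first of these differed from the second at 5 bases, of which 1 was in the signature, and from Cyp4a14 at 14 bases, of which 2 were in the signature. Within each of the first 2 groups the 78 bases were identical.

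Reads from identical stretches cannot be assigned to 1 gene, and the authors' program divides them between genes by estimation. Of the 100-base windows of each GENCODE transcript, the length of 1 read, 35.8% in Cyp4a12a and 36.2% in Cyp4a12b occurred in the other of the pair. Windows shared within the Cyp4a10 group made up 12.7% in Cyp4a10, 8.22% in Cyp4a31 and 20.1% in Cyp4a32. Cyp4a14 shared 0 of its 2397 windows. The single values of the 5 members with shared windows are therefore uncertain to the extent that reads were divided between them, and sums over each group are given with them. The 60-base coding stretches in which the copies differed most are shown because they hold some of the bases that tell the copies apart (5′ to 3′ on the plus strand, with every differing base in capitals). For the pair they are coding bases 624 to 683, in exons 5 and 6, spanning chr4:115326309-115326681 in Cyp4a12a and chr4:115432561-115432934 in Cyp4a12b. For the other group they are coding bases 200 to 259 in exon 2, at chr4:115519640-115519699 in Cyp4a10, chr4:115565020-115565079 in Cyp4a31 and chr4:115602270-115602329 in Cyp4a32.
Cyp4a12a: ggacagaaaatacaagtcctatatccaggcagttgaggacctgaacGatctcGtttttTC
Cyp4a12b: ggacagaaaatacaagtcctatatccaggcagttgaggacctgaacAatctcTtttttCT
Cyp4a10: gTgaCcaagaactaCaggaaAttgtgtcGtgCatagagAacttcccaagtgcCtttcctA
Cyp4a31: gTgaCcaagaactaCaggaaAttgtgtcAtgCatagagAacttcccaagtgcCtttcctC
Cyp4a32: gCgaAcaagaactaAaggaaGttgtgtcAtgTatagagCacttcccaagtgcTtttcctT
The Cyp4a12a and Cyp4a12b stretches differed at 4 of 60 positions, out of 23 differing bases in the whole coding sequence. In the Cyp4a10 group, 9 of the 60 positions and 77 in all were not the same in the 3 genes.

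**Figure D2:**
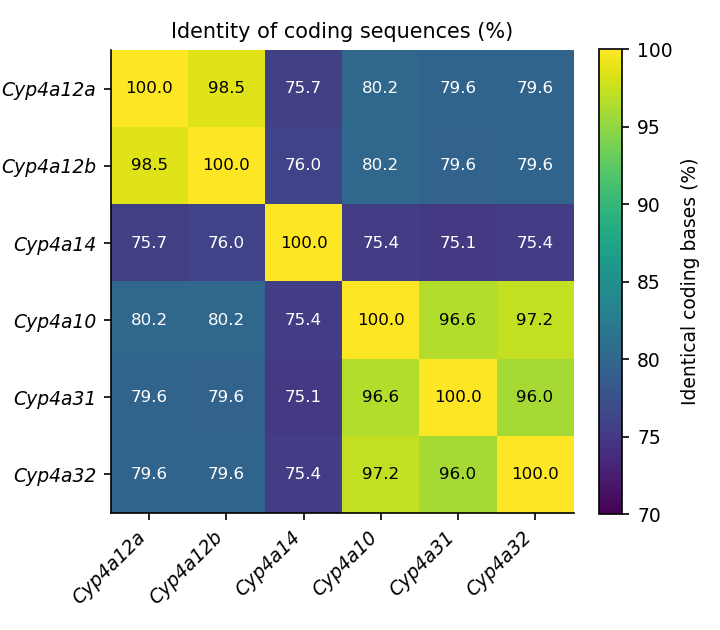
Identity between the coding sequences of the 6 members, as the percent of aligned bases that were identical, with genes in chromosome order on both axes. The pair Cyp4a12a and Cyp4a12b (98.5%) and the block of Cyp4a10, Cyp4a31 and Cyp4a32 (96.0% to 97.2%) stand out from the remaining cells, which lie between 75.1% and 80.2%.

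Pgrmc1, the deleted gene, was at 0.68 TPM in the KO pool and 949.49 TPM in the WT pool, in the direction of the labels. The libraries held an estimated 22086688 reads in KO and 29710410 in WT, so the WT values rest on more reads. Across the 11623 genes that averaged 1 TPM or more, the median of log2((KO TPM + 1)/(WT TPM + 1)) was -0.01, and its 5th and 95th percentiles were -0.27 and 0.27. Hepatocyte markers had summed levels of 66854.7 TPM in the KO pool and 69905.1 TPM in the WT pool, and none of the 5 markers of kidney proximal tubule, another site of Cyp4a expression, reached a mean of 1 TPM, with sums of 0.45 and 0.41 TPM. All intervals are at 95% and reflect counting error alone, so differences between mice are outside them, and no p-value can be given with 1 library per genotype.

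Liver without Pgrmc1 had higher transcript levels of the PPAR alpha-inducible members Cyp4a10 (1.65-fold) and Cyp4a14 (1.58-fold), while the male-biased Cyp4a12a and Cyp4a12b were at 0.992-fold and 0.908-fold of their WT levels. A gene was called up at 1.4-fold or more of TPM + 1 and down at 0.6-fold or less, and by this rule 2 of the 6 members rose and 0 fell. Over all 11623 genes, 141 (1.21%) were up and 35 (0.301%) were down by the same rule. On the log2 scale the down limit lies farther from 0 than the up limit. With the mirror of 1.4 (0.714) as the down limit, 118 genes were down. Among genes that averaged 10 TPM or more, which 5 members did, the share up was 0.994% and the same 2 members were in it. A 2-fold rise was reached by 0 members and 0.387% of all genes.

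Cyp4a10, an inducible omega-hydroxylase, was at 189.06 TPM in KO (interval 183.9 to 194.3) and 114.47 TPM in the WT pool (111.0 to 118.0). The intervals did not overlap, and the KO level was 65.2% higher, or 1.65-fold on the TPM + 1 scale. Its log2 change of 0.72 was exceeded by 67 of the 11623 genes, so that 99.4% of genes had a lower value. The values rest on an estimated 5105 reads in KO and 4134 in WT, and the log2 ratio of the authors' means was 0.74, with an interval of 0.68 to 0.80.

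Cyp4a14, the other inducible form and the member with no shared windows, was at 103.6 TPM in KO (100.1 to 107.1) and 65.2 TPM in the WT pool (62.8 to 67.6). It rose 1.58-fold, a log2 change of 0.66 that 80 genes exceeded, and again the intervals of the libraries did not overlap. The log2 ratio of the authors' means was 0.68 (0.61 to 0.75), from an estimated 3395 reads in KO and 2859 in WT. The changes of Cyp4a10 and Cyp4a14 differed by 0.06 on the log2 scale of those means, with an interval of -0.04 to 0.15 that holds 0. The levels themselves kept a similar ratio, with Cyp4a10 at 1.82 times Cyp4a14 in KO and 1.76 times in WT.

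Cyp4a32, a close copy of Cyp4a10, was at 18.76 TPM in KO (17.1 to 20.5) and 13.74 TPM in the WT pool (12.5 to 15.1). The library intervals were apart, but its 1.34-fold ratio did not pass the 1.4-fold rule. The log2 ratio of the means was 0.47, with an interval of 0.27 to 0.66 that spans the threshold. This ratio was below that of Cyp4a10 by 0.27 (0.08 to 0.47). With 20.1% of its windows shared and a level well below that of Cyp4a10, which was 10.1 times as high in KO and 8.33 times in WT, the part that divided reads had in the Cyp4a32 value was not tested.

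Cyp4a31 was the least abundant member, at 3.42 TPM in KO (2.80 to 4.11) and 3.23 TPM in the WT pool (2.72 to 3.82), with overlapping intervals. Its log2 ratio of means was 0.09 and its interval of -0.29 to 0.46 was the widest among the members, since only 109 estimated reads in KO and 139 in WT lay behind it. A difference of the size seen for Cyp4a10 lies outside that interval, as Cyp4a10 exceeded Cyp4a31 by 0.65 (0.28 to 1.01). The difference between Cyp4a31 and Cyp4a32 was -0.37, with an interval of -0.78 to 0.03 that holds 0. Summed over Cyp4a10, Cyp4a31 and Cyp4a32, which removes the effect of how reads were divided within the group, the level was 211.24 TPM in the KO pool and 131.44 TPM in the WT pool, a ratio of 1.61.

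Cyp4a12a, the main male form, was at 186.28 TPM in KO (181.6 to 191.1) and 187.72 TPM in the WT pool (183.6 to 191.9). These intervals overlapped, and the log2 ratio of the means was 0.00 with an interval of -0.05 to 0.05, the narrowest of the 6. Cyp4a12b was at 51.28 TPM in KO (48.8 to 53.9) and 56.57 TPM in the WT pool (54.3 to 58.9), 0.908-fold of TPM + 1. Its level was thus lower in KO by more than counting error (log2 ratio of means -0.13, interval -0.22 to -0.04) but did not pass the 0.6-fold rule, and 17.5% of all genes had a lower log2 value. Because of the windows the pair share, their sum is the firmer value: it was 237.56 TPM in the KO pool and 244.29 TPM in the WT pool, a ratio of 0.972 with a log2 interval of -0.07 to 0.02 from the estimated reads.

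**Figure D3:**
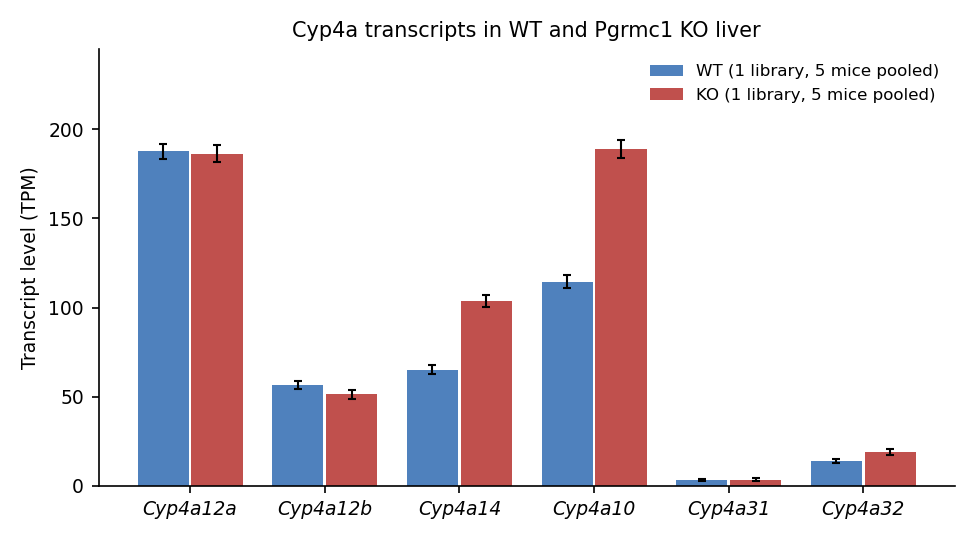
Transcript level in TPM of each Cyp4a gene in the WT (blue) and KO (red) library, each 1 pool of 5 mice, with genes in chromosome order. Error bars are 95% counting intervals and do not show the spread between mice. Cyp4a10 (189.06 against 114.47 TPM) and Cyp4a14 (103.6 against 65.2 TPM) have bars that stand well apart, and those of Cyp4a12a (186.28 against 187.72 TPM) are level.

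The order of the members by level differed between the libraries in 1 place. In WT, Cyp4a12a was the most abundant, followed by Cyp4a10, Cyp4a14, Cyp4a12b, Cyp4a32 and Cyp4a31, and no neighbouring intervals overlapped. In KO, Cyp4a10 and Cyp4a12a headed the list with overlapping intervals, and the remaining order was that of WT. The ratio of Cyp4a10 to Cyp4a12a was 0.610 in WT and 1.01 in KO. The members thus covered a wide range: Cyp4a12a had a higher mean level than 94.8% of the 11623 genes, and Cyp4a31 a higher one than 19.5%.

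Summed over the 6 genes, Cyp4a transcripts amounted to 552.4 TPM in the KO pool and 440.93 TPM in the WT pool, a ratio of 1.25 (log2 ratio 0.33, interval of the reads 0.29 to 0.35). The gain of Cyp4a10 was 74.59 TPM and that of Cyp4a14 was 38.4 TPM, which together (112.99 TPM) came to slightly more than the gain of 111.47 TPM for all 6. The composition of the family moved accordingly. Cyp4a10 and Cyp4a14 made up 40.7% of Cyp4a transcripts in WT and 53.0% in KO, and Cyp4a12a and Cyp4a12b made up 55.4% in WT and 43.0% in KO. As a share of the TPM of all P450 genes, the 6 members held 2.38% in WT and 2.64% in KO. That total was itself higher without Pgrmc1. The 100 P450 genes together, members included, came to 20893.9 TPM for the KO pool against 18491.3 TPM for the WT pool, or 1.13-fold. Of this gain of 2402.55 TPM, the members made up 111.47 TPM, so most of it lay in other P450 genes. A higher summed level was thus not particular to Cyp4a.

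Each pair of members was compared by the difference of their log2 ratios, 15 pairs in all, and for 4 pairs the interval held 0. These were Cyp4a10 with Cyp4a14, and Cyp4a31 with each of Cyp4a12a, Cyp4a12b and Cyp4a32. Cyp4a10 exceeded Cyp4a12a by 0.74 (0.66 to 0.81) and Cyp4a12b by 0.87 (0.76 to 0.97). Cyp4a14 differed from both by a like margin, with Cyp4a12a lower by 0.68 (difference -0.68, interval -0.77 to -0.59) and Cyp4a12b lower by 0.81 (-0.81, -0.93 to -0.69). Between the near-identical Cyp4a12a and Cyp4a12b the difference was 0.13 (0.03 to 0.23), though reads of such copies are not counted independently. Of the members, 4 of 6 had a log2 ratio of means whose interval lay wholly above or below 0, beside 25.1% of the 11542 genes with such an interval. For 3 of these, Cyp4a10, Cyp4a14 and Cyp4a32, the interval lay above 0, beside 11.7% of genes. Intervals narrow as reads increase, so such counts depend on level. Both shares are over genes of any level from 1 TPM, and none was computed for genes of like level.

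**Figure D4:**
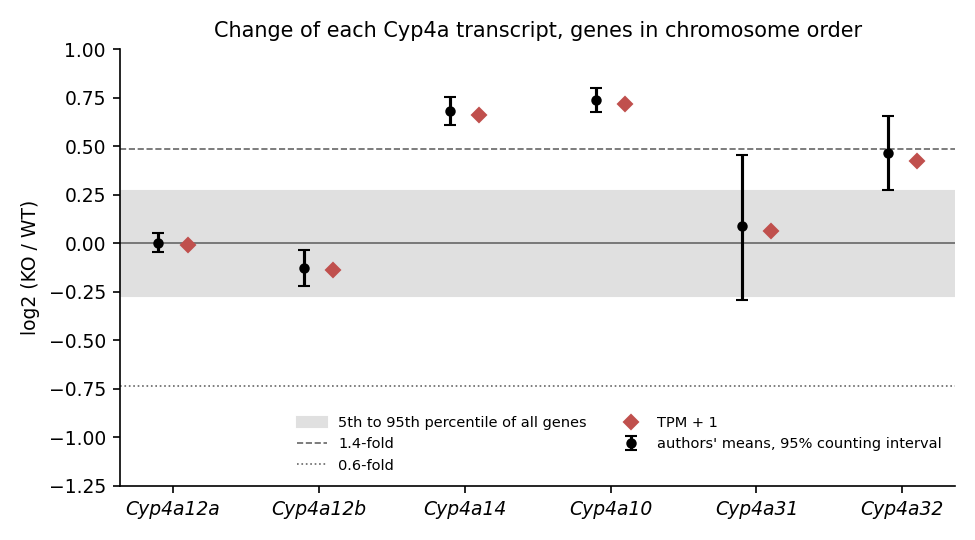
Log2 ratio of KO to WT for each Cyp4a gene in chromosome order, from the authors' means with 95% counting intervals (black) and from TPM + 1 (red diamonds). Only Cyp4a14 and Cyp4a10 lie above the dashed 1.4-fold line with their whole interval, the interval of Cyp4a32 (0.27 to 0.66) crosses it, and the values of Cyp4a12a, Cyp4a12b and Cyp4a31 lie in the grey band that holds the central range of all genes (-0.27 to 0.27).

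Other genes of the Cyp4 family were set beside the members. Of 12 such genes 7 averaged 1 TPM or more, 0 of these passed the fold rule in either direction, and their median log2 change was -0.03. They ranged from Cyp4f14, which oxidizes leukotrienes, at -0.06 (156.14 TPM in the KO pool and 163.24 TPM in the WT pool) to Cyp4f16 at 0.26 (2.93 and 2.29 TPM). Their summed level was 559.94 TPM in the KO pool and 569.57 TPM in the WT pool, with a log2 interval of -0.04 to 0.02 for the reads, whereas that of the 6 Cyp4a members was 0.29 to 0.35.

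The steps that follow omega hydroxylation were then set beside the members. Of 9 measured genes for the dehydrogenases, acyl-CoA synthetases and transporters that act on the products, 0 passed the fold rule and the median log2 change was 0.01. Adh1, the most abundant of them and an alcohol dehydrogenase, had the lowest value at -0.07 (1659.1 TPM in the KO pool and 1735.76 TPM in the WT pool), and Acsl1, a long-chain acyl-CoA synthetase, the highest at 0.21 (524.76 and 454.69 TPM). Slc27a2, a fatty acid transporter with acyl-CoA synthetase activity, was at 0.06. All 9 were thus below the values of Cyp4a10 and Cyp4a14.

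Peroxisomal beta oxidation, by which the dicarboxylic acids are shortened, gave a median of 0.04 over 21 genes with 0 past the fold rule. Scp2 and Cat, abundant genes of the list that code for a thiolase with a sterol carrier domain and for catalase, were at 0.02 and -0.03. The values ran from -0.08 for Abcd2, a peroxisomal transporter, to 0.48 for Acot3, an acyl-CoA thioesterase of low level (1.44 TPM in the KO pool and 0.75 TPM in the WT pool) that was at 1.39-fold of TPM + 1. At so low a level the added 1 TPM lowers the fold, and the log2 ratio of the authors' means of Acot3 was 0.98 (interval 0.30 to 1.66), past the rule. In mitochondrial beta oxidation and ketogenesis, all 18 genes were within 0.1 of 0, beside 53.7% of all genes, and their median was 0.05. That share is over genes of any level from 1 TPM, while 17 of the 18 averaged 10 TPM or more. No share was computed for genes of like level. The 18 values ran from Acadl (-0.07) to Hadh (0.10), both dehydrogenases of the beta oxidation spiral. Acaa2, a thiolase, was at 0.06 and Etfb, an electron carrier subunit, at -0.02.

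Among 16 measured PPAR alpha targets of other function, 1 passed the fold rule, and the median was -0.00, above 0 with the authors' means and after centring. Pdk4, a kinase that inhibits pyruvate dehydrogenase, rose 1.41-fold, with 6.43 TPM in the KO pool against 4.26 TPM (log2 ratio of means 0.61, interval 0.36 to 0.85). Fgf21, a fasting hormone and also a classical target, lay at the other end, at 2.93 TPM in the KO pool and 5.5 TPM in the WT pool, or 0.605-fold, from 31 and 79 estimated reads. Its log2 ratio of means was -0.92 (-1.56 to -0.30), past the 0.6-fold limit on that scale. Cd36, a fatty acid uptake protein that was chosen after its values were seen, was at 10.74 TPM in the KO pool and 17.28 TPM in the WT pool, or 0.642-fold. It rests on more reads than Fgf21, and its log2 ratio of means was -0.68 (-0.84 to -0.53), short of the limit on both scales. Above 0, Acot1 was at 0.29 (31.73 TPM in the KO pool and 25.72 TPM in the WT pool) and Vnn1 at 0.28 (25.58 and 20.87 TPM). Both were also named after their values were seen, and neither passed the 1.4-fold rule. Of the 16 genes, 8 were above 0 and the rest below. Fabp1, the liver fatty acid binding protein and the most abundant of the list, was at -0.04, and the lipid droplet protein Plin2 at -0.10. Over the 4 lists together, 1 of 62 genes (Pdk4) was up and 0 were down on the TPM + 1 scale, while 2 (Acot3 and Pdk4) were up and 1 (Fgf21) was down by the authors' means. Of the 62, 42 were above 0 beside 45.8% of all genes, and the median was 0.03. The members Cyp4a10 and Cyp4a14 had higher log2 changes of TPM + 1 (0.72 and 0.66) than each of the 62, but by the authors' means Acot3 was above both, with an interval that holds both their values.

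The receptor itself and its partners had no gene past the rule among 15. Ppara was at 95.78 TPM in the KO pool and 99.15 TPM in the WT pool (log2 -0.05), and Rxra, coding for the partner with which it binds DNA, at 144.64 and 141.06 TPM (0.04). The lowest value was that of the coactivator gene Ppargc1b, at -0.37 (4.76 and 6.43 TPM), and the highest that of Ppard, a related receptor, at 0.27 (2.79 and 2.14 TPM). The activity of the receptor was not measured. For arachidonic acid, the substrate from which Cyp4a enzymes form a vasoactive eicosanoid, 4 of 9 genes of release and of competing routes were measured and 0 passed the rule. They lay between Ephx2, an epoxide hydrolase, at -0.05 and Pla2g4a, a phospholipase, at 0.15.

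**Figure D5:**
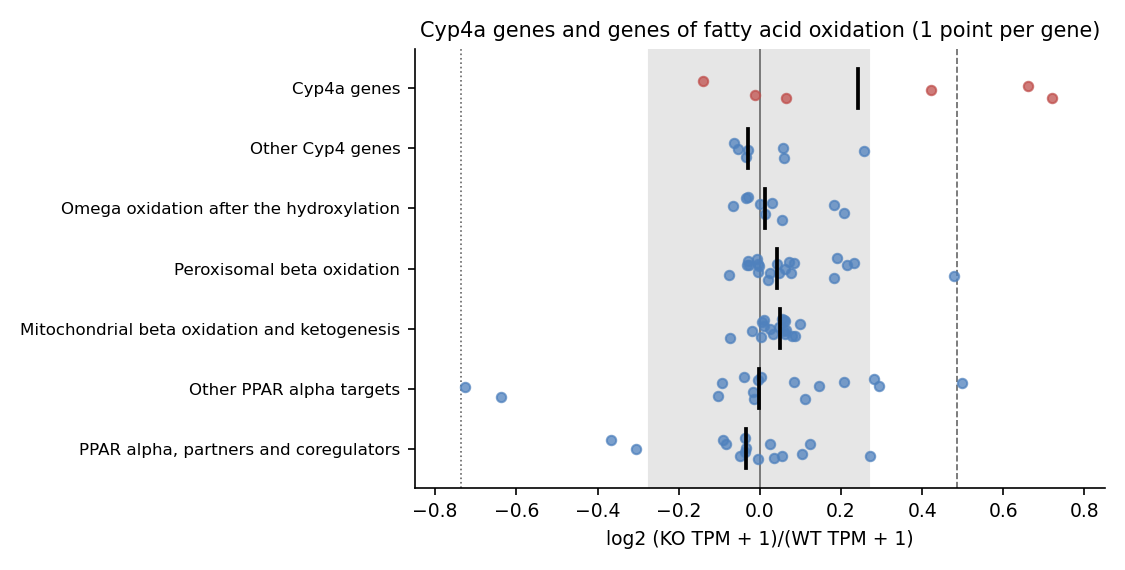
Log2((KO TPM + 1)/(WT TPM + 1)) of the 6 Cyp4a genes (red) and of the measured genes (1 TPM or more on average) in 6 lists (blue), with 1 point per gene, the median as a black bar, the 1.4-fold and 0.6-fold limits as dashed and dotted lines and the 5th to 95th percentile of all genes in grey. Cyp4a10 (0.72) and Cyp4a14 (0.66) are the points farthest to the right, Pdk4 (0.50) is the only list gene past 1.4-fold on this scale, and the list medians lie between -0.03 and 0.05.

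Electrons reach the Cyp4a enzymes from P450 reductase and cytochrome b5. A list of 6 genes joined genes of this electron transfer with Pgrmc1 and Pgrmc2, and only Pgrmc1, the deleted gene, passed the rule. Por, the reductase, was at 179.35 TPM in the KO pool and 178.39 TPM in the WT pool (log2 0.01), and Cyb5, cytochrome b5, at 0.12. Pgrmc2, the paralog of the deleted gene, was at 22.4 TPM in the KO pool and 26.74 TPM in the WT pool (-0.25).

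Because Cyp4a12a and Cyp4a12b are male-biased, other sex-biased liver genes were set beside them. Of 15 male-biased genes 2 rose and 0 fell, beside 1.21% and 0.301% of all genes, with a median of 0.06. Those that rose were Moxd1 at 1.45 (6.42 and 1.71 TPM) and Susd4 at 0.62 (15.71 and 9.9 TPM), and the lowest was Mup20, a urinary pheromone carrier, at -0.71 (17437.6 and 28502.6 TPM), or 0.612-fold. Mup20 was just short of the 0.6-fold limit and was down with the mirrored fold of 0.714. The values of the list thus lay on both sides of 0, and the sum of the Cyp4a12 pair was at a log2 ratio of -0.04. Of 13 female-biased genes 11 were under 1 TPM and Cyp17a1 (-0.32) and Ttc39c (0.24) did not pass the rule.

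Markers of liver zones and cell types and clock genes also differed between the libraries. All 6 pericentral hepatocyte markers were above 0, with a median of 0.14, Rhbg past the rule at 0.49 and summed levels of 1093.27 TPM in the KO pool and 991.89 TPM in the WT pool. All 7 periportal markers were below 0, with a median of -0.21, Sds lowest at -0.51 and sums of 3457.31 and 4155.3 TPM. In whole liver RNA, a lower level from fewer cells of a type cannot be told apart from less RNA per cell. Kupffer cell markers were above 0 for 5 of 5 genes (sums of 180.63 and 160.68 TPM), endothelial markers for 0 of 4 (108.45 and 120.7 TPM), stellate cell markers for 1 of 4 (160.4 and 180.32 TPM) and cholangiocyte markers for 1 of 3 (4.15 and 5.44 TPM). General hepatocyte markers were above 0 for 0 of 4. Beside these counts, 45.8% of all genes were above 0. Of 15 circadian clock genes 2 rose, namely Arntl at 0.60 (16.42 and 10.53 TPM) and Npas2 at 0.52 (1.52 and 0.76 TPM), and the lowest was the clock repressor gene Ciart at -0.57 (5.51 and 8.68 TPM). By the same rule 1.21% of all genes rose. The median of the clock genes was -0.16, and 5 of the 15 were above 0. Nr1d1 (-0.40), Per3 (-0.39), Nr1d2 (-0.37), Dbp (-0.35) and Tef (-0.35) also lay below the 5th percentile of all genes (-0.27). These genes were named after their values were seen, and none of them passed the 0.6-fold rule. Cyp4a10 and Cyp4a14 are known to cycle with the time of day in mouse liver. The part of liver zones, other cell types and sampling time in the values of Cyp4a10 and Cyp4a14 was not tested.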

How the data were processed

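Paired reads of 100 bases from a stranded total RNA kit were, per the labels and the study's methods, aligned to mm10 with Bowtie and quantified with RSEM 1.2.09 after CASAVA 1.8.2. The authors deposited the posterior mean TPM per gene and, from EBSeq, a mean signal per library, that is, estimated reads divided by a size factor. The second table also holds the authors' fold changes and probabilities of differential expression, which were not used. The TPM columns were matched to genotypes by name. The mean columns carry condition numbers only, and were matched through a table of the study that lists the same values under KO and WT, so every ratio of means and interval rests on that match. The count of per-sample columns not used was 0. TPM keeps no depth, and its total was 1005325 for KO and 994702 for WT. Plain TPM have the same total in every library, so the deposited values had been rescaled between the libraries before this use. In the means, the most frequent value (1.16 in KO and 0.860 in WT) was taken as 1 read, and 79.4% of KO and 75.8% of WT values were then whole within 0.02 of a read. Since other values were not whole, no count test was run.

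Changes were log2((KO TPM + 1)/(WT TPM + 1)) for genes averaging 1 TPM or more, called at folds of 1.4 and 0.6. Intervals at 95% (Clopper-Pearson for ratios, exact Poisson for TPM, Woolf for differences between genes) came from the estimated reads. Near-identical genes were compared with GENCODE M21 transcripts (GRCm38) in Biopython 1.88, and other steps used Python 3.11.15, pandas 2.3.3 and scipy 1.17.1. The calls were tested on simulated data. Named genes were all Cyp4a genes, Pgrmc1, Ppara and Rxra, each list gene past a fold, the highest and lowest of each list, and the 3 most abundant of the 4 oxidation and target lists, some of which are not reported here. Por, Pgrmc2, Cd36, Acot1, Vnn1, Nr1d1, Per3, Nr1d2, Dbp and Tef were named after their values were seen. Lists came from general knowledge, and Cyb5a and Adgre1 were matched to the table as Cyb5 and Emr1 through RefSeq synonyms. Members and lists were chosen with earlier results of these data known. Alternatives were another pseudocount, the authors' means, centring, rescaling, other filters and folds, and sums over near-identical genes.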

Additional observations from a re-analysis of the deposited data

How the results depend on the processing

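The number of Cyp4a genes up was 2 under centring, rescaling (leaving out the top 50 genes), a pseudocount of 0.1 TPM, the authors' means, no filter, a minimum of 10 TPM and the mirrored fold, and 0 with folds of 2 and 0.5, which neither Cyp4a10 nor Cyp4a14 reached. No member was down under these 8 settings. The changes of Cyp4a10 and Cyp4a14 ranged from 0.68 to 0.74 and from 0.66 to 0.68. Cyp4a12a, near 0, took the other sign under 2 settings. Summing near-identical genes gave -0.040 for Cyp4a12b with Cyp4a12a, and 0.68 for Cyp4a31 and for Cyp4a32 with Cyp4a10, which sets the sum. The log2 ratio of all 6 members (0.33) was 0.15 without Cyp4a10 and 0.68 without Cyp4a12a and Cyp4a12b. Over all genes, 141 were up and 35 down. These counts were 296 and 80 with the authors' means, 280 and 70 with a pseudocount of 0.1 TPM, 62 and 17 at a minimum of 10 TPM, and 45 and 13 with folds of 2 and 0.5, and 118 were down with the mirrored fold. Of 9 list medians, that of other PPAR alpha targets took the other sign under 3 settings. Of the 62 genes in the 4 oxidation and target lists, 1 was up and 0 down, against 2 and 1 with the authors' means or a pseudocount of 0.1 TPM, 2 and 0 after centring, 1 and 2 with the mirrored fold, and 0 and 0 at a minimum of 10 TPM or with folds of 2 and 0.5.

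No paired analysis was possible because there was only 1 library of KO and 1 of WT. No library was left out in turn, for the same reason, and the spread between the 5 pooled mice was not measured. A pseudocount was not applied to the summed level. Depth limits Cyp4a31 most, with 109 and 139 estimated reads.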
